A study of Mus musculus with 6 samples.

Results

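The genes described here encode the proteins of the mitochondrial ribosome in mouse heart. They were taken as every row of the deposited gene table whose symbol is Mrpl or Mrps followed by a number and at most 1 letter from a to d, which gave 78 of 50385 genes. By the known structure of the mammalian particle, 51 of them belong to the large subunit and 26 to the small subunit. Mrps36 is today assigned to the 2-oxoglutarate dehydrogenase complex and not to the ribosome. Despite their names, Mrps30 and Mrps18a sit in the large subunit.

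Libraries came from hearts of male Mdx/Utrn dKO mice, which lack dystrophin and utrophin and model Duchenne muscular dystrophy. Treatment began at an age of 2 to 3 months and went on by daily oral gavage for 12 weeks, with setanaxib, labelled as a Nox4 inhibitor, at 60 mg/kg per day (3 libraries) or with corn oil, the vehicle (3 libraries). Both groups carry the same genotype, and the design holds 1 comparison, setanaxib against vehicle, which bears on the part of Nox4 in dystrophic cardiomyopathy. Each library has a number of its own in the labels, which do not say in words that the libraries are separate animals, so a p-value here reflects the variation from library to library, which may be technical.

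Mitochondria keep ribosomes of their own, which translate only the messenger RNAs of the mitochondrial genome, all of them for subunits of the respiratory chain and of ATP synthase. The large subunit joins amino acids and the small subunit reads the codon. Their protein parts are encoded in the nucleus, made in the cytosol and imported, while their ribosomal RNAs are copied from mitochondrial DNA. Heart muscle is among the tissues richest in mitochondria, and inherited defects of several of these proteins cause cardiomyopathy.

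Libraries held 110803307 to 154003318 estimated counts, of which genes of the mitochondrial genome took 20.5% to 29.96%. The heart muscle markers were all present in every library, with summed levels of 32818 to 46434 CPM (estimated counts scaled to library size by TMM) over 8 genes. Setanaxib replicate 3 stood apart. The 2 atrial markers found in the table, Myl4 and Myl7, summed to 1245 CPM there and to 0.828 to 46.7 CPM in the other 5 libraries, and 3 lung epithelium markers to 602 CPM against 0 to 19.6 CPM, with 2 or 3 of the 3 at 0 in each of those 5. Fold changes of genes that it moved by over 1.5 times are given without it too.

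All 78 genes passed the filter on low values and were expressed in every library, with 239 to 12567 estimated counts. None passed edgeR's quasi-likelihood test of setanaxib against vehicle adjusted over all genes, and none passed DESeq2 or limma-voom. The background was low too: edgeR called 1 of 20472 genes (0.00488%), and DESeq2 2.43% of the genes it gave an adjusted p. At an unadjusted p under 0.05, edgeR counted 1 of the 78 genes higher, Mrpl39, where 3.76% of all genes were higher, and 0 lower, where 4.69% of all genes were; in either direction the share of all genes was 8.46%. The setanaxib and vehicle ranges were apart for 1 of the 78 genes, again Mrpl39 and on the higher side, against 17.6% of all genes (8.11% higher and 9.46% lower).

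The changes were small. Of the 78 genes, 57 were lower and 21 higher with setanaxib, with a median log2 fold change of -0.07 beside 0.01 over all genes tested. For 70 of them (89.7%) the log2 fold change lay within 0.25 of 0, which held for 56.6% of all genes. These shares are not matched for level. Of the 20472 genes tested, 14414 were above 0 in every library with a mean of at least 1 CPM, while the lowest mean among the 78 was 4.18 CPM (Mrpl46). The 51 genes of the large subunit had a median of -0.08, with 42 lower, and the 26 of the small subunit a median of -0.05, with 15 lower. Within the large subunit, the 30 proteins classed as having a bacterial homologue and the 21 classed as specific to mitochondria had medians of -0.08 and -0.10. In the small subunit these classes, of 16 and 10 genes, had medians of -0.03 and -0.16. The class medians were taken with all 6 libraries only, so how far they rest on setanaxib replicate 3 was not tested. Mrps18a and Mrps18b are classed as specific to mitochondria, although both are relatives of bacterial S18.

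The lower side of these counts rested on setanaxib replicate 3. That library had the lowest level of 70 of the 78 genes (89.7%), against 25.1% of the genes above 0 in every library. Measured against each gene's own mean over the 6 libraries, the median deviation was 0.17, 0.06 and -0.32 on the log2 scale in setanaxib replicates 1, 2 and 3, and 0.02, 0.13 and -0.05 in vehicle replicates 1, 2 and 3. The first of the setanaxib libraries was thus the highest of all 6 and the last of them the lowest, with the other 4 between. Both subunits followed this order of libraries, with -0.37 in the large and -0.29 in the small subunit for setanaxib replicate 3.

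**Figure D1:**
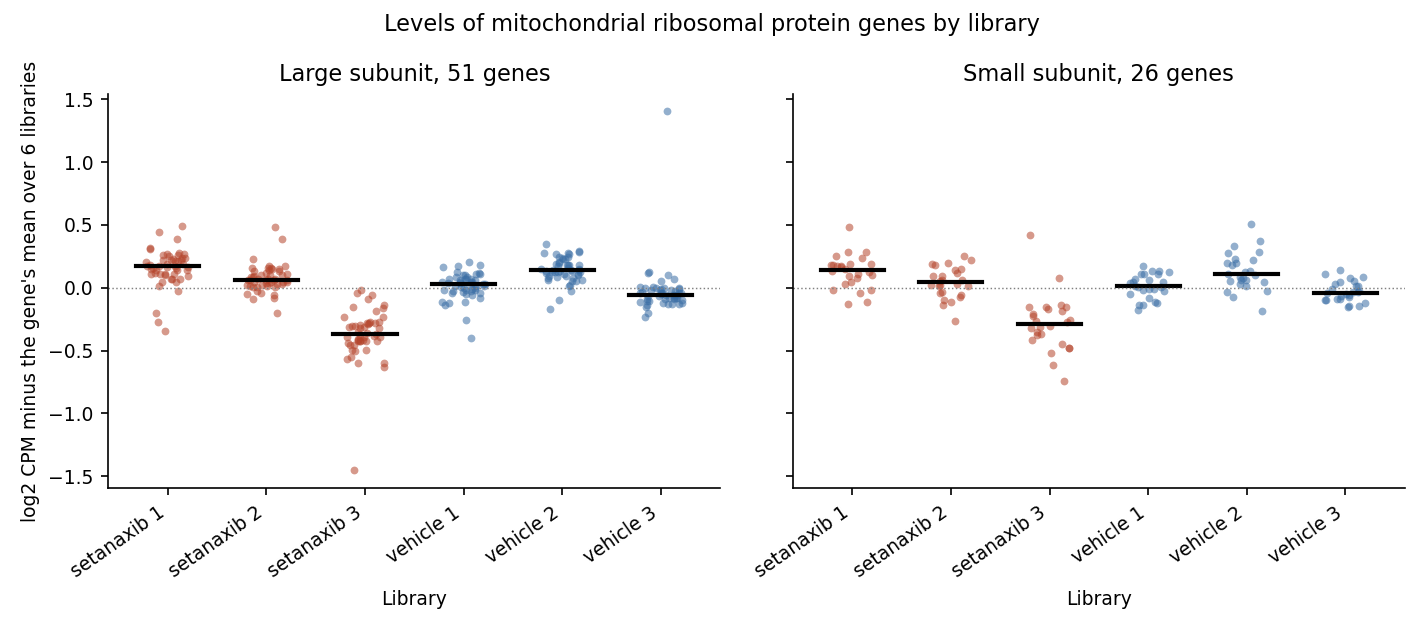
Each point is a gene of the large (left, 51 genes) or small (right, 26 genes) mitochondrial ribosomal subunit in a library, as log2 CPM minus the gene's mean over 6 libraries; black bars are medians. Setanaxib replicate 3 has medians of -0.37 and -0.29, and the single point far up in vehicle replicate 3 and far down in setanaxib replicate 3 is Mrpl53.

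Without setanaxib replicate 3 the direction turned. Then 57 of 78 genes were higher and 21 lower, and the median log2 fold change was 0.07, beside -0.00422 over all genes. In that fit 3 genes were higher at an unadjusted p under 0.05 by edgeR, Mrpl39, Mrps31 and Mrpl47, and 0 were lower, where 5.67% of all genes were higher and 7.91% lower; none passed after adjustment. Without setanaxib replicate 1, 69 of 78 genes were lower, with a median of -0.17, and Mrpl19 and Mrpl57 were lower at an unadjusted p under 0.05, where 5.35% of all genes were, while 0 were higher, where 4.78% of all genes were. Without vehicle replicate 2 the genes were evenly placed, with 37 higher and 41 lower and a median of -0.0081.

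**Figure D2:**
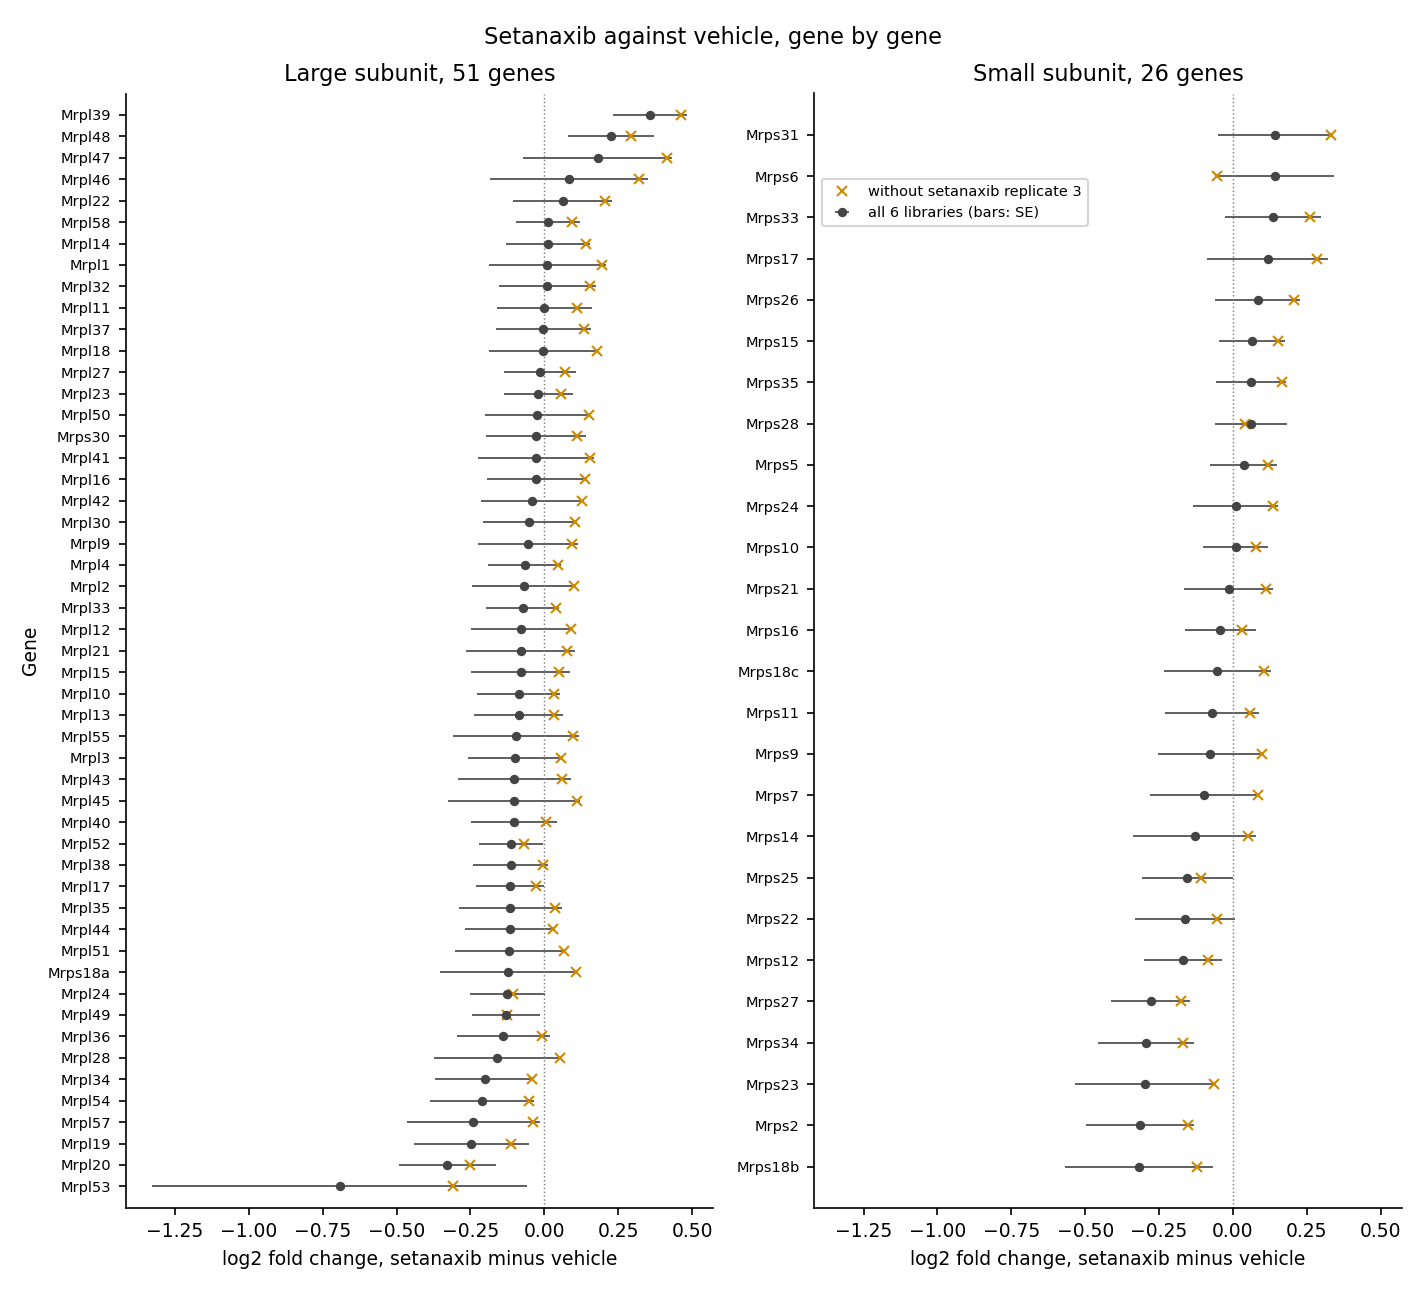
Log2 fold change of each gene, setanaxib minus vehicle, with its SE over all 6 libraries (dark points and bars) and without setanaxib replicate 3 (crosses), for the large subunit (left) and the small subunit (right). Most dark points lie left of 0 and most crosses right of it; Mrpl39 lies furthest to the right in both fits.

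Summed over the 78 genes, the level was 1921, 1811 and 1355 CPM in setanaxib replicates 1, 2 and 3 and 1744, 1902 and 1676 CPM in vehicle replicates 1, 2 and 3. The 13 messenger RNAs of the mitochondrial genome, the templates of these ribosomes, summed to 333039, 263580 and 171219 CPM with setanaxib and to 257398, 280482 and 226843 CPM with vehicle. Both sums were highest in setanaxib replicate 1 and lowest in setanaxib replicate 3. The 8 markers of heart muscle cells summed to 42421, 46434 and 32818 CPM with setanaxib and to 41154, 41889 and 44237 CPM with vehicle, so setanaxib replicate 3 was lowest here as well.

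Set against the summed muscle markers, setanaxib replicate 3 lay within the range of the other libraries. That library was lowest for 6 of the 8 markers, but these did not fall alike. Myh6, the largest part of the sum, was at 16357 CPM there and at 16260 to 20761 CPM in the other libraries. Actc1 was at 3860 CPM there and at 7882 to 9457 CPM in the others. The ratio therefore holds for the sum and not for each marker. For every 1000 CPM of heart muscle markers, the 78 genes had 45.3, 39.0 and 41.3 CPM in setanaxib replicates 1, 2 and 3 and 42.4, 45.4 and 37.9 CPM in vehicle replicates 1, 2 and 3. The groups overlapped on this scale. For every 1000 CPM of mitochondrial messenger RNA there were 5.77, 6.87 and 7.91 CPM with setanaxib and 6.77, 6.78 and 7.39 CPM with vehicle. Here the order of the setanaxib libraries was the reverse of that of the sums, and again the groups overlapped. In whole heart tissue, fewer heart muscle cells and less RNA per cell cannot be told apart.

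Markers of other cell types did not share a single pattern. The 5 fibroblast markers summed to 1269, 1488 and 2383 CPM in setanaxib replicates 1, 2 and 3, against 1982, 1367 and 1983 CPM in vehicle replicates 1, 2 and 3. The high sum of setanaxib replicate 3 came mostly from Gsn, at 1676 CPM there, which is not a defining marker. Of the setanaxib libraries, replicate 3 was also highest for the defining markers Col1a1, Dcn and Pdgfra, at 224, 397 and 74.1 CPM. Each was higher in vehicle replicate 3, at 329, 399.9 and 81.5 CPM. Col1a1 in setanaxib replicate 3 was below every vehicle library, while Dcn and Pdgfra lay between vehicle replicates 1 and 3. Tcf21 was at 11.5 CPM in setanaxib replicate 3 and at 3.97 to 8.21 CPM in the other libraries. The 6 macrophage markers summed to 89.4, 121 and 111 CPM with setanaxib and 151, 183 and 150 CPM with vehicle, without overlap, and all 6 were lower with setanaxib. The 5 endothelial markers summed to 489, 601 and 554 CPM with setanaxib and 627, 692 and 605 CPM with vehicle, and the 4 markers of smooth muscle and pericytes to 511, 547 and 412 CPM with setanaxib and 611, 538 and 612 CPM with vehicle. Endothelial sums did not overlap either, while those of smooth muscle and pericytes did. Most of the latter sum was Rgs5, at 267 to 432 CPM, and Rgs5 and Myh11 overlapped. Cspg4 and Pdgfrb had ranges apart and were lower with setanaxib. Cspg4 was at 23.9, 37.1 and 40.4 CPM with setanaxib and 50.6, 49.9 and 50.6 CPM with vehicle. Pdgfrb was at 43.9, 73.7 and 77.8 CPM with setanaxib and 97.9, 84.3 and 101 CPM with vehicle. Of the 5 endothelial markers, Kdr alone had ranges apart, at 84.0, 177 and 125 CPM with setanaxib and 196, 220 and 184 CPM with vehicle. Cdh5, Tie1, Emcn and Pecam1 overlapped, and Pecam1 was slightly higher with setanaxib (log2 fold change 0.06). Without setanaxib replicate 3 the value of Pecam1 was -0.0056, and 0 of the 5 endothelial markers were higher. The 5 skeletal muscle markers were at or near 0 in every library. The part of these cells in the levels of the mitochondrial ribosomal genes was not tested.

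**Figure D3:**
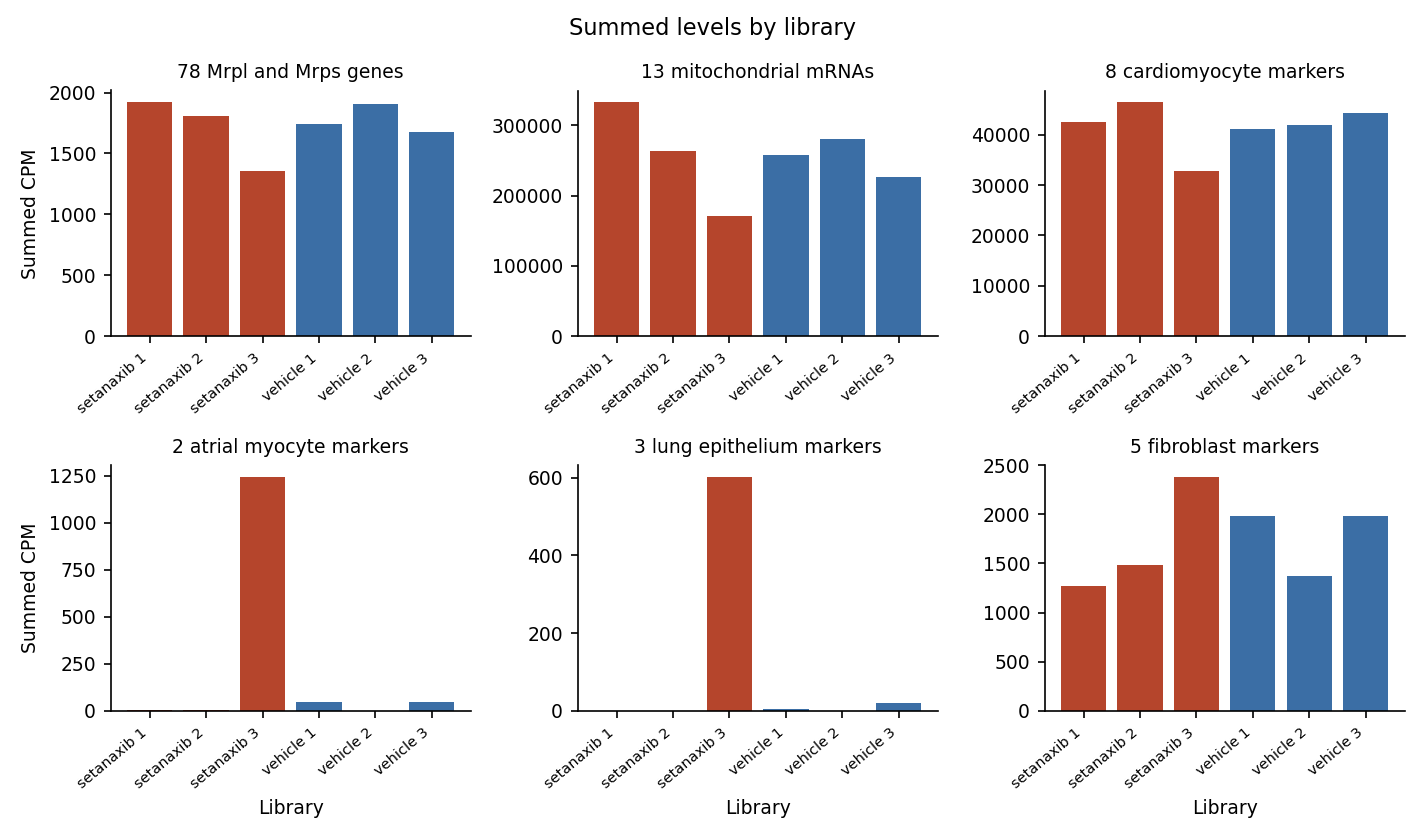
Summed CPM of the 78 Mrpl and Mrps genes, of mitochondrial messenger RNAs and of marker lists, 1 bar a library, setanaxib left (red) and vehicle right (blue). Setanaxib replicate 3 has the shortest bar for the 78 genes, the messenger RNAs and the heart muscle markers, and the tallest for atrial and lung markers. Its tall fibroblast bar is mostly Gsn, at 1676 CPM.

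The ratio of the subunits hardly moved between libraries. Summed CPM of the large subunit's genes were 2.83, 2.80 and 2.72 times those of the small subunit's genes in setanaxib replicates 1, 2 and 3, and 2.77, 2.76 and 2.76 times in vehicle replicates 1, 2 and 3. The setanaxib libraries included both the highest and the lowest ratio. The genes also kept their proportions to each other. The median SD of log2 CPM over the 6 libraries was 0.21 among the 78 genes and 0.11 after the median of the 78 genes was subtracted in each library. For the 14414 genes above 0 in every library and with a mean of at least 1 CPM, the same SD was 0.23 before and 0.29 after that subtraction. Part of the fall among the 78 genes comes from subtracting a median of the genes themselves. The same subtraction adds spread to genes that do not follow that median, so the SDs after it are not a like comparison.

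Mrpl39, a large subunit protein classed as specific to mitochondria, was the gene furthest on the higher side. It was at 33.5, 38.8 and 28.8 CPM in setanaxib replicates 1, 2 and 3 and at 27.3, 26.4 and 25.2 CPM in vehicle replicates 1, 2 and 3. Every setanaxib library lay above every vehicle library, setanaxib replicate 3 included, although that library was low for nearly all other genes of the set. The means were 33.7 ± 4.96 CPM with setanaxib and 26.3 ± 1.03 CPM with vehicle (SD, n = 3 each), a log2 fold change of 0.36 (SE 0.12) that did not pass edgeR's test over all genes (adjusted p = 0.527). Without setanaxib replicate 3 the log2 fold change was 0.46 (SE 0.093, adjusted p = 0.183 by edgeR).

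Promoters of the set were read for matches to known motifs, and whether such motifs bear on the levels seen here was not tested. The promoters of the 2 higher and 2 lower genes of lowest p are printed for comparison, from 250 bases before to 30 bases after the transcript start given by RefSeq (GRCm38.p6). Mrpl39 lies at chr16:84735215-84735494 (minus strand), Mrpl48 at chr7:100608272-100608551 (minus), Mrps27 at chr13:99344536-99344815 (plus) and Mrpl20 at chr4:155802628-155802907 (plus). Capitals mark matches, on either strand, to GCATGCGC, a core of the site of NRF1, a regulator of nuclear genes for mitochondrial proteins, to AAGATGGC (YY1), to CCGGAAGT (the ETS family) and to the E-box CACGTG.
Mrpl39: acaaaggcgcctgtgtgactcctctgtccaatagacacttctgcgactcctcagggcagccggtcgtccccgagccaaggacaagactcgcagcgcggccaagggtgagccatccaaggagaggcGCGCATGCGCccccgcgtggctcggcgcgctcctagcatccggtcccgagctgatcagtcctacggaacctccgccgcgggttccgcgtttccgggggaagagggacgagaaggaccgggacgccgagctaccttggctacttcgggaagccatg
Mrpl48: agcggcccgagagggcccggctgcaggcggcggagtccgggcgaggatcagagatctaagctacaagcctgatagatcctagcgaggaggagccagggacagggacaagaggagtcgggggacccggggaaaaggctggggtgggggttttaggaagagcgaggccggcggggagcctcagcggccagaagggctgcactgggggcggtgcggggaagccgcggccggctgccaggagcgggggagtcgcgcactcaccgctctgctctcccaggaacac
Mrps27: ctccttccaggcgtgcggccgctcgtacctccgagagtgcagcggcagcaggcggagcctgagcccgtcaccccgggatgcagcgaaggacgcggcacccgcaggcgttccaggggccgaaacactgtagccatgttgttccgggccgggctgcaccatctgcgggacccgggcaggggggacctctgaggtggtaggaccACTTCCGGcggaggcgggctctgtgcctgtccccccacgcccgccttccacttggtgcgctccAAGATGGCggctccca
Mrpl20: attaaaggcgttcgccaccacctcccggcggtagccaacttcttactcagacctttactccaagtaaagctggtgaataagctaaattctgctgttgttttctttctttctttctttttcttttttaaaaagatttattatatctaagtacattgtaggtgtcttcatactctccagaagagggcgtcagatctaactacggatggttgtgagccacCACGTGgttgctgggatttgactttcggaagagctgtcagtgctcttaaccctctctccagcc

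The Mrpl39 promoter holds the NRF1 core on both strands, overlapping in a single palindromic run that begins 125 bases before the start. In Mrps27 the capitals are an ETS match 49 bases before the start and a YY1 match just after it, and in Mrpl20 an E-box. No match to these letters lies in the Mrpl48 window, which is that of the most upstream of 4 starts listed for the gene. The windows of its other starts are not shown. Among the 69 genes of the set with a promoter in the RefSeq table, 8 (11.6%) held the NRF1 core, 12 (17.4%) the YY1 motif, 11 (15.9%) the ETS motif and 5 (7.25%) the E-box, counting the most upstream start and 50 bases after it. Over 17491 protein-coding promoters of the same length the shares were 3.60%, 3.21%, 5.28% and 7.91%, and over all 27025 promoters 2.80%, 2.87%, 3.99% and 7.24%. These are matches of letters, and promoters of this set and of other genes may differ in base composition.

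Next on the higher side came Mrpl48, a protein of the large subunit's central protuberance. It was at 22.7, 16.8 and 17.2 CPM with setanaxib and at 17.1, 16.3 and 15.2 CPM with vehicle, where setanaxib replicate 1 alone was clearly above the rest and the groups overlapped (log2 fold change 0.23, SE 0.14). Without that library it was 0.066. Its value is uncertain, because the span of the gene overlaps that of the coding gene Rab6a in the annotation and the pseudogene Mrpl48-ps carried up to 13.8% of its estimated counts. Mrpl47, the relative of the bacterial protein L29, was at 18.7, 22.5 and 11.5 CPM with setanaxib and 13.5, 17.2 and 15.8 CPM with vehicle. Its setanaxib libraries held both the highest and the lowest value, and the log2 fold change was 0.18 (SE 0.25) with all libraries and 0.42 without setanaxib replicate 3. The gene overlaps Actl6a and Ndufb5.

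In the small subunit Mrps31, Mrps33, Mrps26 and Mrps15 shared a pattern, with setanaxib replicates 1 and 2 above every vehicle library and setanaxib replicate 3 the lowest of the 6. Mrps31 was at 12.9, 12.6 and 8.15 CPM with setanaxib and at 9.56, 10.6 and 10.2 CPM with vehicle. Its log2 fold change was 0.14 (SE 0.19), and 0.33 without setanaxib replicate 3. For Mrps33, Mrps26 and Mrps15 it was 0.14, 0.08 and 0.06, and 0.26, 0.21 and 0.15 without that library. Without setanaxib replicate 1 the value of Mrps31 was 0.027 and that of Mrps26 0.0031. Mrps6 went the other way, at 4.47, 4.46 and 6.46 CPM with setanaxib and 4.46, 4.26 and 5.23 CPM with vehicle, and was the only gene of the 78 at its highest in setanaxib replicate 3. Its gene overlaps Slc5a3, a transporter gene, and without that library its log2 fold change of 0.14 (SE 0.20) became -0.05.

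On the lower side, the gene of lowest p was Mrps27, a pentatricopeptide repeat protein of the small subunit. It was at 26.5, 26.6 and 21.3 CPM in setanaxib replicates 1, 2 and 3 and at 30.6, 33.1 and 26.5 CPM in vehicle replicates 1, 2 and 3. The groups met only at their edges, with vehicle replicate 3 between the 2 upper setanaxib values. Means were 24.8 ± 3.00 CPM with setanaxib and 30.1 ± 3.33 CPM with vehicle (SD, n = 3 each; log2 fold change -0.28, SE 0.13, edgeR adjusted p = 0.648). Without setanaxib replicate 3 it was -0.18.

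Mrpl20, the large subunit relative of bacterial L20, was at 8.04, 11.3 and 8.25 CPM with setanaxib and 10.96, 12.5 and 11.1 CPM with vehicle. Setanaxib replicate 2 alone reached the vehicle range, and setanaxib replicate 1, high for most of the set, was the lowest here (log2 fold change -0.33, SE 0.17). In the small subunit, Mrps34 differed by -0.29 (SE 0.16) and Mrps2 by -0.31 (SE 0.18) on the log2 scale, and by -0.17 and -0.15 without setanaxib replicate 3. Without vehicle replicate 2, which was the highest library for both, Mrps2 stood at -0.20. Mrps2 was at 26.6, 23.6 and 17.3 CPM with setanaxib and at 25.5, 32.1 and 26.3 CPM with vehicle. Mrps34 overlaps the coding genes Mapk8ip3 and Nme3. None of these passed edgeR's test (adjusted p of 0.669 for Mrpl20, 0.693 for Mrps34 and 0.704 for Mrps2).

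Mrps23 showed how far a single library could set a fold change. It was at 43.2, 48.0 and 25.3 CPM with setanaxib and at 45.5, 51.3 and 46.6 CPM with vehicle, so that 5 libraries lay close together. Its log2 fold change of -0.30 (SE 0.23) became -0.06 without setanaxib replicate 3. Without that library, Mrpl19, which overlaps the coding gene Gcfc2, stood at -0.11 in place of -0.25 (SE 0.19), and Mrps12, a protein of the decoding centre, at -0.08 in place of -0.17 (SE 0.13).

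**Figure D4:**
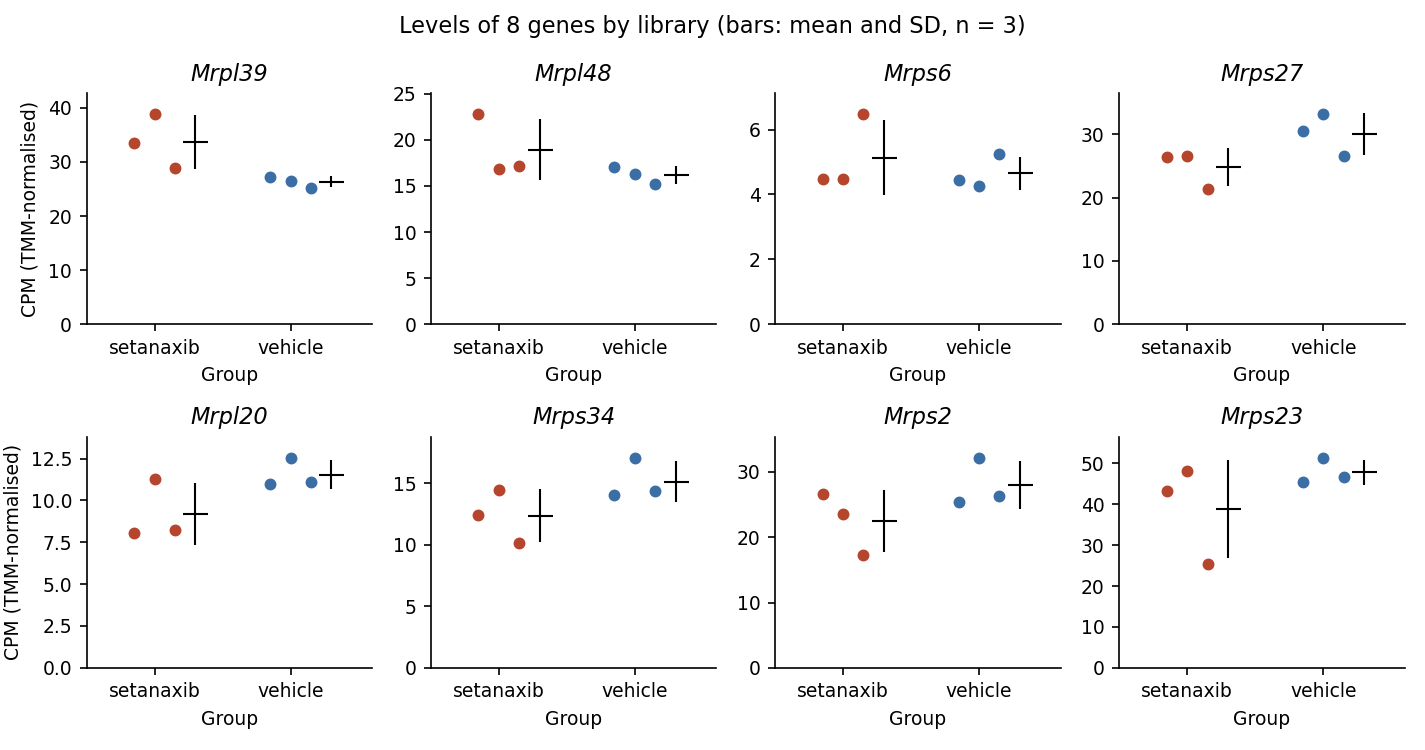
CPM of 8 genes in each library (points), with mean and SD (bars, n = 3), setanaxib left and vehicle right; axes start at 0. Mrpl39 alone has groups that do not overlap, and the lowest setanaxib point of Mrps27, Mrps34, Mrps2 and Mrps23 is replicate 3.

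The most abundant messages of the set kept the common order of libraries. Mrpl12, which forms the flexible stalk of the large subunit, was at 92.3, 81.6 and 58.8 CPM with setanaxib and 80.5, 86.0 and 79.3 CPM with vehicle. Mrpl42 was at 75.2, 69.4 and 48.5 CPM with setanaxib and 65.4, 70.6 and 63.1 CPM with vehicle. Mrpl4 was at 70.2, 64.4 and 52.6 CPM with setanaxib and 64.0, 68.6 and 63.5 CPM with vehicle. In all 3 genes setanaxib replicate 1 was above the highest vehicle value and setanaxib replicate 3 below the lowest, and the log2 fold changes were -0.08, -0.04 and -0.07. Without setanaxib replicate 3 they were 0.090 for Mrpl12, 0.13 for Mrpl42 and 0.046 for Mrpl4. At the other end, Mrpl46, Mrps6 and Mrps11 had the lowest mean CPM of the set. Mrpl46 and Mrps11 overlap each other in the annotation, and differed by 0.08 (SE 0.27) and by -0.07 (SE 0.16) on the log2 scale, against 0.32 and 0.059 without that library.

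Per kilobase of annotated exon, levels spread widely within the ribosome, whose proteins are present at about equal numbers apart from the stalk. Mrps21 and Mrpl12 had the highest levels, at 55.3 and 52.1 CPM per kilobase, and Mrps10 the lowest, at 1.31. The median was 9.69 CPM per kilobase over the large subunit's genes and 5.14 over the small subunit's. The length is the union of all annotated exons of a gene, so a long rare exon lowers its value.

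Mrps18a, Mrps18b and Mrps18c are relatives that share an ancestor with bacterial S18, and each has its own place, Mrps18a in the large subunit and the others in the small one. Mrps18a was at 32.1, 29.1 and 17.4 CPM with setanaxib and 30.2, 29.2 and 26.1 CPM with vehicle. Mrps18b was at 13.8, 15.4 and 9.12 CPM with setanaxib and 15.3, 19.9 and 12.7 CPM with vehicle. Mrps18c was at 8.18, 6.91 and 5.28 CPM with setanaxib and 7.15, 7.38 and 6.59 CPM with vehicle. In each of the 3, setanaxib replicate 3 was lowest and the groups overlapped. The log2 fold change was -0.12 (SE 0.23) for Mrps18a, which overlaps the coding gene Rsph9, -0.32 (SE 0.25) for Mrps18b and -0.05 (SE 0.18) for Mrps18c. Mrps18b stood at -0.12 without setanaxib replicate 3 and at -0.13 without vehicle replicate 2, and the other pair turned positive without setanaxib replicate 3, at 0.11 for Mrps18a and 0.10 for Mrps18c. For Mrps30 it was -0.03 (SE 0.17) and for Mrps36 0.05 (SE 0.12), against 0.11 and 0.16 without that library; pseudogenes named for Mrps36 each carried at most 2.03% of its estimated counts.

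Relative to the common level, a few genes separated. After the median of the 78 genes was subtracted in each library, setanaxib and vehicle ranges were apart for 9 of 78 genes, 2 higher and 7 lower. By the same measure they were apart for 11.8% of all genes above 0 in every library (5.97% higher and 5.86% lower). This scale was chosen after seeing the data. The higher ones were Mrpl39 and Mrps33. The lower ones were Mrps2, Mrps23, Mrps27, Mrps34, Mrpl20, Mrpl34 and Mrpl54, 4 of them in the small subunit and 3 in the large. Mrpl34 and Mrpl54 were named after their values were seen. As a share of 78, the 9 genes are close to that background.

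Mrpl53, also named after its values were seen, had the widest spread of the set, with an SD of 0.95 on the log2 scale. It was at 6.998, 4.76 and 1.81 CPM with setanaxib and at 3.76, 5.03 and 13.1 CPM with vehicle. The highest value, in vehicle replicate 3, was 7.25 times the lowest, in setanaxib replicate 3, and the log2 fold change of -0.69 had an SE of 0.63. It was -0.31 without setanaxib replicate 3 and 0.041 without vehicle replicate 3. The gene overlaps Gm42688 and Ccdc142os in the annotation. Over the set, 42 of 78 genes overlap another annotated gene, 26 of them a coding gene. These are overlaps of whole gene spans, introns included and on either strand, and overlap of exons was not looked at. No source used here says whether counting used strand, so where exons overlap, values can include reads of a neighbour. At the quiet end, Mrps10, Mrps5 and Mrps16 had SDs of 0.084, 0.10 and 0.10.

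The protein partners of these genes were about as level by the medians of their lists, though single genes moved more. Of 5 ribosomal proteins that carry other names, 2 were higher and 3 lower, with a median log2 fold change of -0.03. They were led by Gadd45gip1 of the large subunit (-0.21, SE 0.14, and -0.098 without setanaxib replicate 3) and the GTP-binding Dap3 of the small subunit (0.08, SE 0.11, and 0.18 without it). Among 17 tested translation factors, 6 were higher and 11 lower (median -0.07). Metap1d, which removes the first methionine, was at 25.9, 24.7 and 19.5 CPM with setanaxib and 20.3, 16.6 and 19.6 CPM with vehicle, and Mrrf, the ribosome recycling factor, differed by -0.18 (SE 0.10) on the log2 scale. The 20 genes of tRNA charging had 11 higher and 9 lower (median 0.02), led by the tRNA synthetases Nars2 (0.25, SE 0.13) and Ears2 (-0.29, SE 0.19).

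Of 30 genes of ribosome assembly, 11 were higher and 19 lower (median -0.04). Noa1, a GTPase of small subunit assembly, was at 10.2, 9.69 and 6.77 CPM with setanaxib and 11.5, 12.3 and 10.8 CPM with vehicle, and the RNA methyltransferase Mrm3 stood at -0.45 (SE 0.27) on the log2 scale. Without setanaxib replicate 3 the log2 fold change of Noa1 was -0.21, in place of -0.38 (SE 0.18), and that of Mrm3 -0.22. Of 20 genes of mitochondrial DNA transcription and RNA processing, 5 were higher and 15 lower (median -0.06). Polrmt, the mitochondrial RNA polymerase, was at 25.9, 26.1 and 22.7 CPM with setanaxib and at 29.2, 33.3 and 28.9 CPM with vehicle. Its log2 fold change of -0.29 (SE 0.10) did not pass edgeR's test (adjusted p = 0.530). Ssbp1, which coats single-stranded mitochondrial DNA, was at 13.3, 9.88 and 8.87 CPM with setanaxib and 8.22, 7.82 and 8.36 CPM with vehicle (log2 fold change 0.39, SE 0.17). Over all the partner lists, the setanaxib and vehicle ranges were apart for 5 genes, beside 17.6% of all genes. Nars2, of 20 tRNA charging genes, was higher, and Mrrf, of 17 translation factors, and Noa1, of 30 assembly genes, were lower. Of the 20 genes of transcription and RNA processing, Ssbp1 was higher and Polrmt lower. The remaining lists, of 5, 2 and 13 genes, had 0. No gene of these lists passed edgeR's or DESeq2's test over all genes. At an unadjusted p under 0.05 edgeR counted Polrmt alone, beside 8.46% of all genes.

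The RNA partners of these proteins varied most. mt-Rnr1, the ribosomal RNA of the small subunit, was at 12.5, 2.02 and 1.12 CPM in setanaxib replicates 1, 2 and 3 and at 1.24, 1.81 and 2.23 CPM in vehicle replicates 1, 2 and 3. mt-Rnr2, that of the large subunit, was at 80.8, 13.5 and 9.23 CPM with setanaxib and 17.5, 26.5 and 13.9 CPM with vehicle. Both were far below the mitochondrial messenger RNAs, and for both setanaxib replicate 1 lay far above the other 5 libraries. The median log2 fold change of both was 1.20, and -0.47 without that library. No source used here says how RNA was selected, so these levels are not read as levels of ribosomes. Of the 13 mitochondrial messenger RNAs, 7 were higher and 6 lower (median 0.0019), and all 13 were lowest in setanaxib replicate 3; without it all 13 were higher (median 0.24). Of complex I, mt-Nd1 differed by 0.16 (SE 0.33) and mt-Nd5 by 0.12 (SE 0.28) on the log2 scale, and by 0.41 and 0.36 without setanaxib replicate 3.

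**Figure D5:**
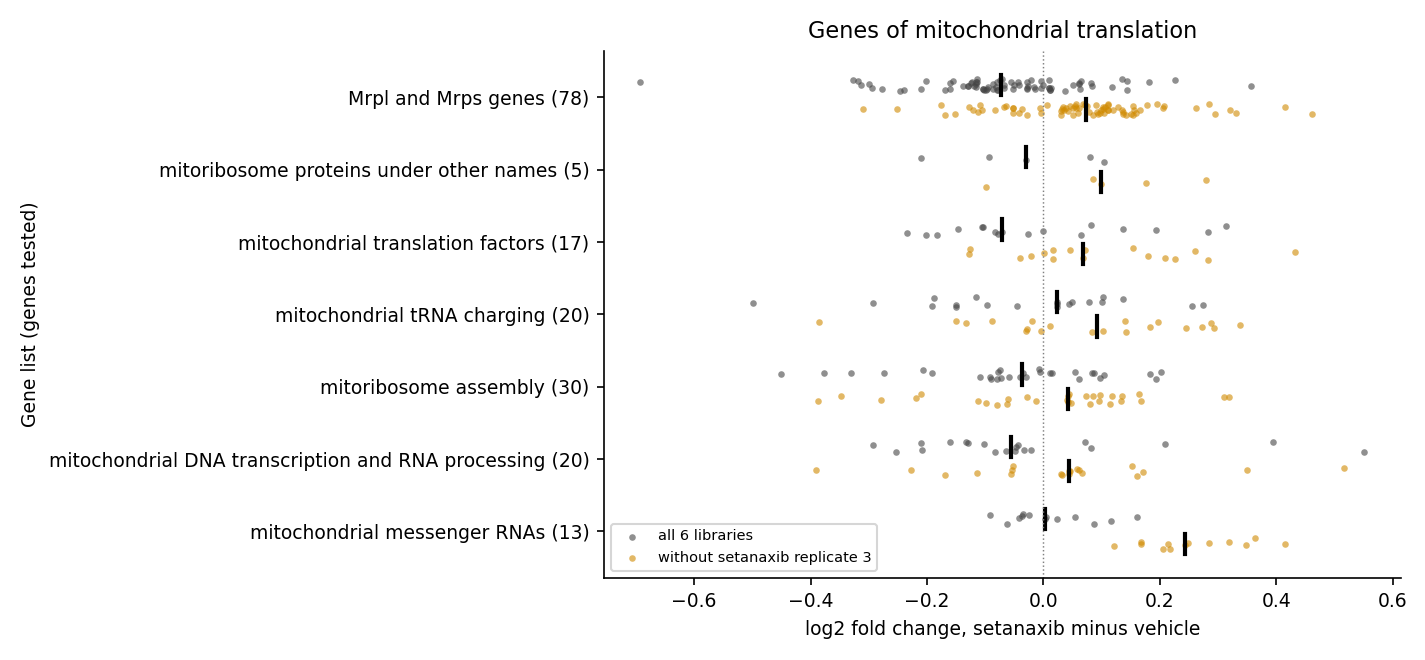
Log2 fold change, setanaxib minus vehicle, of each gene (points) of the 78 and of 6 lists of partners, with all 6 libraries (dark) and without setanaxib replicate 3 (orange); black bars are medians. Without that library the medians of all 7 rows lie right of 0, from 0.04 to 0.24.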

How the data were processed

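RNA sequencing values of 6 mouse heart libraries were used. The deposited table holds estimated counts per gene, not scaled between libraries by the authors. Per the file headers, gene names are written as StringTie's count export does. The submitters' processing notes list STAR 2.5.4b, featureCounts 2.0.1, FastQC 0.11.9, DESeq2 1.42.0 and the build GRCm39. The expected counts, deposited as whole numbers, were not rounded further, and the count tests planned for counts were kept.

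Genes were filtered with filterByExpr of edgeR 4.0.16 (minimum count 10), scaled by TMM (trimmed mean of M values) and tested in R 4.3.3 with edgeR's two-sided quasi-likelihood F test, setanaxib minus vehicle. Benjamini-Hochberg adjustment ran over all 20472 genes tested, with a threshold of 0.05. Standard errors come from the F statistic, and CPM are TMM-normalised. The fit was tested on simulated data. Alternatives were DESeq2 1.42.0, limma-voom 3.58.1, DESeq2's size factors, no filter, removal of the genes of the mitochondrial genome, and leaving out each library.

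The 78 genes and the lists were chosen with earlier results of these data known. Named were the 8 higher and 8 lower genes of lowest p, the 3 highest and 3 lowest in mean CPM, Mrps18a to Mrps18c, Mrps30 and Mrps36, and the 2 genes of lowest p in each related list with both ribosomal RNAs. Lengths and overlaps come from GENCODE M21 on GRCm38, matched by Ensembl ID. That annotation was used for names, lengths and overlaps of gene spans only. Promoters are RefSeq's, on GRCm38.p6.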

Additional observations from a re-analysis of the deposited data

How the results depend on the processing

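The number of all genes called moved from 1 by edgeR to 494 by DESeq2 and 0 by limma-voom. Of the 78 genes none was called by any of these. In the fits without 1 library, edgeR called 0 to 1 of all genes and 0 of the 78. Counts at an unadjusted p under 0.05 ran from 0 to 3 higher (1 with all libraries) and from 0 to 2 lower (0 with all libraries), and the median log2 fold change from -0.17 to 0.073, from -0.17 to 0.071 in the large subunit and from -0.16 to 0.069 in the small subunit. The side above 0 came from the fit without setanaxib replicate 3. DESeq2's size factors, no filter, removal of mitochondrial genome genes, DESeq2 and limma-voom kept these medians below 0. Among named genes that changed sign in a fit without 1 library, the ranges were -0.23 to 0.090 for Mrpl12, -0.17 to 0.046 for Mrpl4, -0.17 to 0.13 for Mrpl42, -0.15 to 0.32 for Mrpl46, -0.040 to 0.42 for Mrpl47, -0.18 to 0.059 for Mrps11, -0.0021 to 0.15 for Mrps15, -0.30 to 0.11 for Mrps18a, -0.21 to 0.10 for Mrps18c, -0.14 to 0.11 for Mrps30, -0.034 to 0.16 for Mrps36 and -0.053 to 0.24 for Mrps6. List medians, recomputed by a choice made after seeing the data, ran from -0.12 to 0.043 for transcription and RNA processing, -0.25 to 0.24 for mitochondrial messenger RNAs (-0.071 by limma-voom), -0.084 to 0.093 for tRNA charging, -0.14 to 0.068 for translation factors, -0.086 to 0.042 for assembly, -0.12 to 0.10 for ribosomal proteins of other names and -0.47 to 1.67 for the ribosomal RNAs (0.51 by limma-voom). Apart from the library left out, the cause was not tested. Subtracting the members' median, also added after seeing the data, moved the count of genes whose groups did not overlap from 1 to 9. No paired analysis was possible because the labels give no replicate number that libraries of both groups share. With at least 239 estimated counts for each of the 78 genes, the spread between 3 libraries, not depth, limits these comparisons.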
